A study of Mus musculus with 12 samples.

Results

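The MYC, MAX and MXD network is a set of basic helix-loop-helix leucine zipper transcription factors that share a DNA-binding partner, and it was followed here in mouse CD8+ T cells through 9 genes: Myc, Max, Mxd1, Mxi1, Mxd3, Mxd4, Mnt, Mga and Mlx. The members were taken by gene symbol from a table of raw read counts for 13780 genes, and all 9 were among the 13767 genes that passed the filter on low counts. As background, MYC binds the E-box CACGTG only as a dimer with MAX and recruits histone acetyltransferase complexes that promote transcription. The MXD proteins, MNT and MGA compete for MAX and bring repressor complexes to the same sites, while MLX links the network to the glucose-sensing proteins MondoA and ChREBP. In T cells MYC is induced early after antigen receptor stimulation and is needed for the growth and metabolic reprogramming that precede division, whereas several MXD genes are typical of resting or differentiated cells.

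RNA-seq was performed on 12 libraries of splenic CD8+ T cells from C57BL/6J mice aged 8 to 12 weeks, purified by positive bead selection, in 3 groups of 4. The naive group was frozen straight after isolation and received no stimulus or agent. The media and lactate groups were both stimulated over 72 h by beads carrying anti-CD3/CD28, with recombinant human IL-2 at 10 U/ml, the first in plain media (the vehicle of the labels) and the second with 40 mM sodium lactate. The control was plain media, so lactate, sodium and osmolarity changed together in the lactate group and cannot be told apart. One label writes the beads as aCD3/CD8, while the protocol of the same samples gives anti-CD3/CD28. No genotype other than the wild-type tag of the activated libraries was given.

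The libraries held 14726904 to 21478137 counts. The library numbers in the labels fall into a low run of 8 libraries and a high run of 4, the latter being naive replicate 4, media replicate 4 and lactate replicates 3 and 4. The CD8 T cell markers summed to 1780 to 3570 CPM (counts scaled to library size) in naive, 2610 to 3230 CPM in media and 2030 to 2520 CPM in lactate libraries. Of these, Cd3e was at 599 to 801 CPM in media and 324 to 400 CPM with lactate, and Cd8a at 821 to 1070 CPM and 766 to 931 CPM. Cd8b1 went the other way, with overlap, at 369 to 479 CPM in media and 443 to 583 CPM with lactate. The part of these shifts between the activated groups in the results was not tested. B cell markers summed to 573 to 1380 CPM in naive libraries against 6.05 to 19.8 CPM in activated ones, myeloid markers to 462 to 1530 CPM against 0.446 to 1.74 CPM, and red cell markers to 85.1 to 3500 CPM against 0 to 1.9 CPM. Every comparison with naive cells therefore contrasts libraries that also differ in the RNA of other cells, and the part of those cells in the results was not tested. Between the activated groups, CD4 T cell markers summed to 44.6 to 55.8 CPM in media and 76 to 89.4 CPM with lactate, nearly all of it Zbtb7b (44.2 to 55.3 and 74.3 to 88.4 CPM). Cd4 itself was at 0.251 to 0.39 CPM in media and 0.256 to 0.99 CPM with lactate, and Foxp3 at or below 0.707 CPM in both. In bulk RNA, fewer cells of a type and less RNA per cell cannot be told apart.

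Levels were compared between genes as TPM, the count divided by gene length and scaled to a common total. Myc had the highest TPM of the network in all 3 groups, at 290.3 ± 72.3 in naive, 457.8 ± 161 in media and 711.6 ± 48.9 in lactate cells (mean ± SD, n = 4). Max came next, at 132 ± 12.1, 142 ± 11.4 and 111 ± 9.32 TPM, followed by Mlx, at 89.0 ± 14.9, 92.3 ± 1.94 and 100.4 ± 3.63 TPM. The ranges of Myc and Max did not overlap in any group, and those of Max and Mlx overlapped only with lactate.

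The order of the repressor genes below them was not the same in the 3 groups. In naive cells it ran Mxd4 (64.9 TPM), Mnt (61.8 TPM), Mxd1 (41.3 TPM), Mga (36.7 TPM), Mxi1 (18.9 TPM) and Mxd3 (5.41 TPM), and each neighbour from Mlx down to Mga overlapped with the next. In media it ran Mxi1 (85.7 TPM), Mnt (58.0 TPM), Mxd3 (49.9 TPM), Mxd4 (46.6 TPM), Mga (29.9 TPM) and Mxd1 (20.7 TPM), where the ranges of Mlx and Mxi1, Mnt and Mxd3, Mxd3 and Mxd4, and Mga and Mxd1 overlapped. With lactate it ran Mxi1 (65.4 TPM), Mnt (38.9 TPM), Mxd3 (27.7 TPM), Mga (17.8 TPM), Mxd4 (8.94 TPM) and Mxd1 (7.16 TPM), and among these neighbours the ranges of Mxd4 and Mxd1 alone overlapped. Mxd4 thus stood first of these 6 genes in naive cells and next to last in lactate cells, and Mxi1 stood next to last in naive cells and first in both activated groups.

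**Figure D1:**
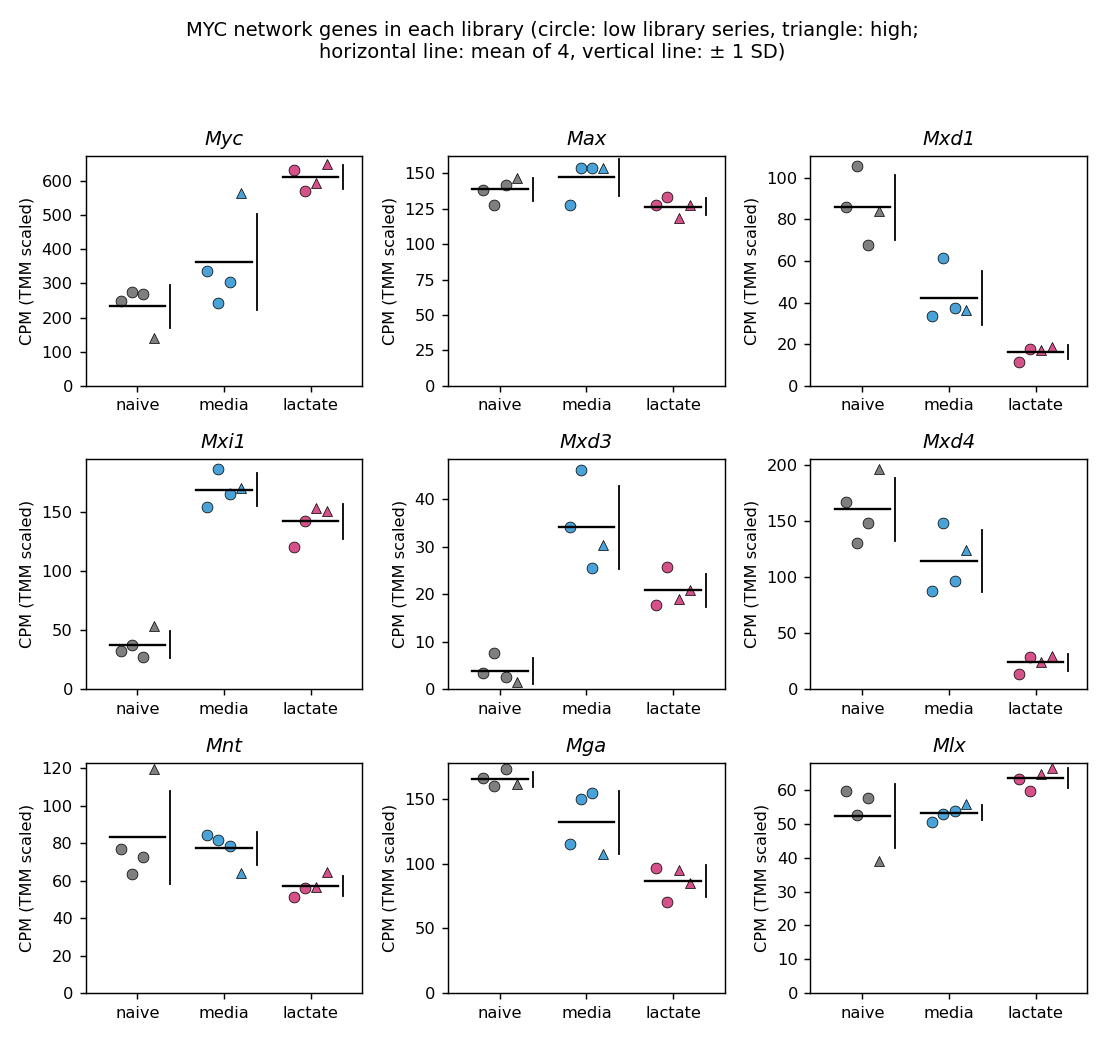
Each panel shows the CPM (scaled by TMM, linear axis from 0) of 1 network gene in the 4 naive, 4 media and 4 lactate libraries. Circles are libraries of the low run and triangles of the high run, horizontal lines are means and vertical lines ± 1 SD. Mxd1 and Mxd4 are lowest in the lactate libraries, Mxi1 and Mxd3 are lowest in the naive ones, and for Myc the high-run media library at 565 CPM stands above the other 3, which lie between 243 and 336 CPM.

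The comparison of the activated groups asks what sodium lactate changed during activation. A gene was called when its adjusted p in edgeR's quasi-likelihood test was at most 0.01. Mxd1, Mxd4 and Mga fell with lactate, no member rose, and 6 members did not pass. Among all genes tested 25.1% were called, 13.9% higher and 11.1% lower. The members' median log2 fold change was -0.43, against -0.00158 over all genes. The libraries of the groups did not overlap for 6 of the 9 members (Myc, Mxd1, Mxi1, Mxd4, Mga and Mlx), while 44.7% of all genes did not overlap. Without naive replicate 4, whose spread enters the common fit, 6 members were called, with Myc and Mlx higher and Mxd1, Mxd4, Mnt and Mga lower. With the 2 activated groups fitted alone 5 members were called.

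The comparison of media with naive cells, called activation below, covers bead stimulation, IL-2 and 72 h of culture together. These cannot be told apart. Mxi1 and Mxd3 rose, Mxd1 fell and 6 members did not pass, where 57.5% of all genes were called, 28.5% higher and 29.0% lower. The libraries did not overlap for 4 of the 9 members (Mxd1, Mxi1, Mxd3 and Mga), against 61.2% of all genes. The members' median log2 fold change was 0.03, against -0.03 over all genes. For lactate against naive cells, Myc, Mxi1 and Mxd3 rose and Mxd1, Mxd4 and Mga fell, which is 6 of 9 members where 65.0% of all genes were called, 33.0% higher and 32.0% lower. The same 6 members were those whose libraries did not overlap, against 67.8% of all genes, and the median was -0.13, against 0.01. The 3 comparisons share libraries: each group enters 2 of them.

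**Figure D2:**
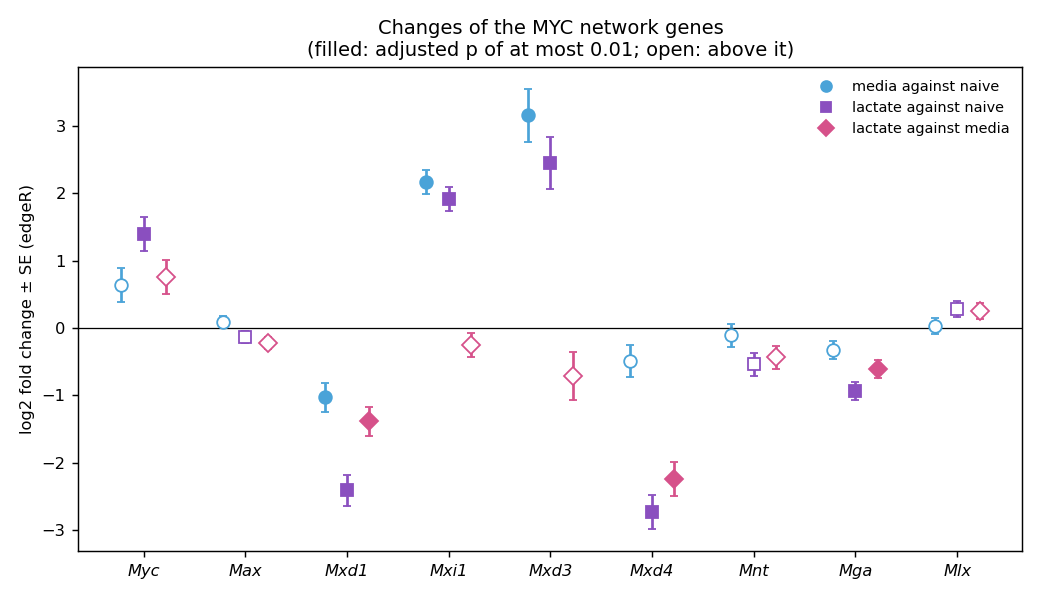
Log2 fold changes (y axis, edgeR, ± SE) of the 9 network genes for media against naive (circles), lactate against naive (squares) and lactate against media (diamonds), with filled symbols for an adjusted p of at most 0.01. Mxi1 and Mxd3 have filled symbols well above 0 against naive cells, Mxd1 lies below 0 in all 3 comparisons, and Mxd4 lies at -0.49 for media and at -2.73 for lactate against naive cells.

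Myc, the activating member, has its gene on chromosome 15 (61985391 to 61990374, plus strand, GRCm38). It was measured at 249, 274, 268 and 139 CPM in naive replicates 1 to 4, at 336, 243, 304 and 565 CPM in media replicates 1 to 4, and at 633, 573, 596 and 649.6 CPM in the lactate replicates. All 4 lactate libraries were above all media libraries, by a margin of 573 against 565 CPM, and the media libraries overlapped the naive ones. The SD was 35.0 CPM with lactate, 141 CPM in media and 63.2 CPM in naive cells.

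Lactate cells had 1.69 times the Myc level of media cells, a log2 fold change of 0.76 (SE 0.251) with an edgeR adjusted p of 0.0293, above the threshold of 0.01. Among the 70 ways to arrange the 8 libraries, an exact permutation test gave p = 0.0286, two-sided, the smallest it can give. That test treats the 8 libraries as freely exchangeable, which they were not. By the mouse tags, cells of 3 mice were present in each of the 2 activated groups, and the library runs were unevenly spread over these groups. Neither the permutation test nor the main edgeR fit took the shared mice or the runs into account. Within the low run of libraries the difference of mean log2 CPM was 1.05 (2 lactate against 3 media libraries), and within the high run it was 0.14 (2 against 1). The difference between the runs was -0.90 on the log2 scale with an unadjusted p of 0.00227 and an adjusted p of 1 in an edgeR interaction test chosen after these values were seen, in which 0 of 13767 genes had an adjusted p of at most 0.01 and 251 had an unadjusted p under 0.05.

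The call for Myc between media and lactate turned on single libraries and on the block. Without media replicate 4 the log2 fold change was 1.05 with an edgeR adjusted p of 0.0029, and without naive replicate 4 the adjusted p was 0.00856. With the mouse of origin as a block and the 8 activated libraries alone, the log2 fold change was 0.68 with an edgeR adjusted p of 0.00809. The block in the fit with all 12 libraries did not give a call. Against naive cells Myc rose 2.63-fold with lactate (log2 fold change 1.40, SE 0.254, edgeR adjusted p = 0.000274), with values of 1.19 (low run) and 2.16 (high run). Media against naive gave 0.64 (SE 0.251, edgeR adjusted p = 0.0381), with 0.14 for the low run (3 against 3) and 2.02 for the high run (1 against 1).

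Max, whose product is the shared partner of MYC, MXD, MNT and MGA, had no log2 fold change beyond 0.22 in size. Its libraries lay at 128 to 147 CPM in naive, 128 to 154 CPM in media and 118 to 133 CPM in lactate cells, and each pair of groups overlapped. The log2 fold changes were 0.09 for media against naive (SE 0.0855, edgeR adjusted p = 0.382), -0.13 for lactate against naive (SE 0.0856, edgeR adjusted p = 0.18) and -0.22 for lactate against media (SE 0.0856, edgeR adjusted p = 0.0588). None of these passed, although a p above the threshold does not show that the levels were equal.

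Mxd4 encodes a MAX-binding repressor that recruits the SIN3 and histone deacetylase complex and is typical of cells that have left the cycle. It was measured at 168, 131, 148 and 196 CPM in naive, 88.0, 149, 96.5 and 124 CPM in media, and 13.5, 28.5, 24.6 and 30.2 CPM in lactate libraries. The highest lactate library was below the lowest media library, and the media and naive libraries overlapped. Lactate against media gave a 4.73-fold lower level (log2 fold change -2.24, SE 0.246, edgeR adjusted p = 7.42e-05), with -2.45 (low run) and -2.18 (high run). This was the largest change of a member between the activated groups, and its size was above that of 97.4% of all genes tested. Against naive cells Mxd4 fell 6.64-fold with lactate (edgeR adjusted p = 7.77e-07), while in media the log2 fold change was -0.49 (SE 0.234, edgeR adjusted p = 0.0794). The exons of Mxd4 overlap an uncounted gene on the opposite strand over 6.06% of their length, and the strand setting of the counting was not given in the sources used here.

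Mxd1, the founding MXD repressor, which is known to rise in differentiating cells, fell at both steps. It was measured at 85.7, 106, 67.6 and 83.9 CPM in naive, 33.4, 61.2, 37.6 and 36.4 CPM in media, and 11.2, 17.7, 17.0 and 18.7 CPM in lactate libraries. No library of 1 group overlapped with another group. The level was 2.03-fold lower in media than in naive cells (log2 fold change -1.02, SE 0.214, edgeR adjusted p = 0.000946) and a further 2.61-fold lower with lactate than in media (-1.39, SE 0.22, edgeR adjusted p = 0.000477). Within the runs the difference between lactate and media was -1.59 (low) and -1.03 (high). Mxd1 and Mxd4 kept their calls between lactate and media under all 25 alternative settings tried, with log2 fold changes of -1.48 to -1.15 and -2.37 to -2.04.

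Mxi1, also known as Mxd2, encodes another SIN3-recruiting partner of MAX and moved the other way at activation. It was measured at 32.1, 37.6, 27.0 and 53.4 CPM in naive, 154, 186, 165 and 170.2 CPM in media, and 121, 142, 153 and 151 CPM in lactate libraries. All activated libraries were above all naive ones. Mxi1 rose 4.50-fold in media against naive cells (log2 fold change 2.17, SE 0.18, edgeR adjusted p = 4.65e-07) and 3.78-fold with lactate (1.92, SE 0.179, edgeR adjusted p = 8.93e-07). All lactate libraries were just below all media libraries (153.5 against 153.7 CPM at the border), and this difference of -0.25 did not pass (SE 0.172, edgeR adjusted p = 0.271). An uncounted gene on the other strand covers 2.84% of the exon length of Mxi1.

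Mxd3, unlike its relatives, is known to be expressed in cycling cells around S phase. It was measured at 3.49, 7.69, 2.64 and 1.46 CPM in naive, 34.1, 46.1, 25.6 and 30.4 CPM in media, and 17.7, 25.6, 18.9 and 20.96 CPM in lactate libraries, on 26 to 128 counts in each naive library. All activated libraries were above all naive ones, and the media and lactate libraries overlapped. Mxd3 rose 8.94-fold in media (log2 fold change 3.16, SE 0.396, edgeR adjusted p = 1.54e-05) and 5.46-fold with lactate (2.45, SE 0.388, edgeR adjusted p = 8.92e-05). Lactate against media gave -0.71 (SE 0.357, edgeR adjusted p = 0.134), which passed when these 2 groups were fitted alone (edgeR adjusted p = 0.00858). Mxd3 shares 4.43% of its exon length with Prelid1 on the other strand.

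Mnt encodes the broadly expressed MAX partner that is held to oppose MYC in most cells. Its libraries lay at 63.5 to 119.6 CPM in naive, 64.3 to 84.4 CPM in media and 51.4 to 64.6 CPM in lactate cells, and neighbouring ranges overlapped. Lactate against media gave a log2 fold change of -0.43 (SE 0.173, edgeR adjusted p = 0.0647), and lactate against naive gave -0.54 (SE 0.173, edgeR adjusted p = 0.013). Within the runs the first was -0.60 (low run) and -0.09 (high run). The first passed without naive replicate 4 (edgeR adjusted p = 0.00472) and in the fit of the 2 groups alone (0.00657), and under no other alternative. The second passed with DESeq2 (adjusted p = 0.00126), with edgeR's likelihood ratio test (0.00601) and under each of the other scalings tried. In media against naive the value was -0.11 (SE 0.173, edgeR adjusted p = 0.602), and it was 0.11 without naive replicate 4, the library with the highest Mnt level.

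Mga encodes a large protein that binds MAX and also carries a T-box domain, and it belongs to a variant Polycomb complex. It was measured at 167, 160.1, 173 and 161 CPM in naive, 115, 150.1, 155 and 107 CPM in media, and 96.7, 70.01, 95.1 and 85.0 CPM in lactate libraries. The 3 groups did not overlap, in the order naive, media, lactate. Mga fell 1.52-fold with lactate against media (log2 fold change -0.60, SE 0.135, edgeR adjusted p = 0.00379), with -0.75 (low run) and -0.25 (high run). With the mouse of origin as a block the edgeR adjusted p was 0.0475 in the fit of 12 libraries and 0.027 with the 8 activated libraries alone. The call was also lost without media replicate 2 (edgeR adjusted p = 0.0143), media replicate 3 (0.0136), lactate replicate 2 (0.0102) or lactate replicate 4 (0.0115). Against naive cells Mga fell 1.90-fold with lactate (edgeR adjusted p = 4.33e-05), and media gave -0.33 (SE 0.134, edgeR adjusted p = 0.0464).

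Mlx encodes the MAX-like partner of MondoA and ChREBP. Its libraries lay at 38.9 to 59.9 CPM in naive, 50.6 to 56.0 CPM in media and 59.9 to 66.7 CPM in lactate cells. The lactate libraries were all above the media ones and overlapped the naive ones, of which naive replicate 4 was lowest. Lactate against media gave a log2 fold change of 0.26 (SE 0.119, edgeR adjusted p = 0.106), which passed without naive replicate 4 (edgeR adjusted p = 0.00943). Media against naive gave 0.03 (SE 0.119, edgeR adjusted p = 0.85), with a sign that turned under DESeq2's size factors (-0.03) and upper quartile scaling (-0.0035). Mlx shares 19.3% of its exon length with Psmc3ip on the other strand, the largest share among the members.

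The E-box bound by the network's own dimers was searched in the 250 bases before the start of each member in the RefSeq promoter table (GRCm38.p6), because members of the network are themselves read out here. The motif was CACGTG, which is its own reverse complement, so that both strands are covered. Promoter windows were found for 8 of the 9 members (all but Myc), with 3 windows for Mxi1. The motif was in the windows of Mxd4, Mnt and Mlx and not in those of Max, Mxd1, Mxi1, Mxd3 and Mga. It was in 6.02% of all 32851 windows and in the windows of 9.88% of the 9903 counted genes that have one. The stretches around it are printed 5′ to 3′ on the gene's strand, with the E-box in capitals. They lie at chr5:34187904-34187949 (minus strand) for Mxd4, chr11:74830781-74830826 (plus strand) for Mnt and chr11:101087230-101087275 (plus strand) for Mlx.
Mxd4: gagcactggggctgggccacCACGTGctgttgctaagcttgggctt
Mnt: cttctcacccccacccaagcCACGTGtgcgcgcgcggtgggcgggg
Mlx: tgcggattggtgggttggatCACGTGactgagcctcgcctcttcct
The motif begins 219 bases before the start in Mxd4, 123 bases in Mnt and 40 bases in Mlx. Between lactate and media, of the 3 genes with the motif, Mxd4 fell and Mnt and Mlx did not pass, at -0.43 and 0.26, and of the called members Mxd1 and Mga had no such letters in their windows. The match is a description of these windows and says nothing of binding.

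Since the partners compete for MAX, their levels were also set against each other within each library, as a description. Myc made up 58.3, 61.4, 62.6 and 39.1% of the summed TPM of the 7 MAX partners (Myc, Mxd1, Mxi1, Mxd3, Mxd4, Mnt and Mga) in naive libraries. In media libraries the share was 61.4, 47.1, 58.7 and 72.6%, and in lactate libraries it was 83.6, 79.5, 80.2 and 80.8%. The 4 lactate shares lay above all others, whereas the media and naive shares overlapped. The means were 55.4 ± 11% in naive, 59.9 ± 10.5% in media and 81.0 ± 1.79% in lactate cells (SD, n = 4). These are shares of mRNA, and protein was not analysed here.

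Taken relative to Max, both sides of that share differed between the activated groups. Without that division the TPM of Myc overlapped, at 686.2 in media replicate 4 and 663.6 in lactate replicate 3. The ratio of Myc to Max TPM was 2.24 ± 0.686 in naive, 3.26 ± 1.22 in media and 6.42 ± 0.488 in lactate cells, with the lowest lactate library (5.70) above the highest media library (4.87). The ratio of the other 6 partners to Max was 1.73 ± 0.190, 2.05 ± 0.256 and 1.5 ± 0.162, and here the highest lactate library (1.65) was below the lowest media library (1.83). The 4 MXD genes summed to 130 ± 18.9 TPM in naive, 203 ± 35.4 TPM in media and 109 ± 11.5 TPM in lactate cells. Within that sum Mxd4 accounted for 49.7% in naive, 22.9% in media and 8.06% in lactate cells, and Mxi1 for 14.2%, 42.7% and 60.1%.

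**Figure D3:**
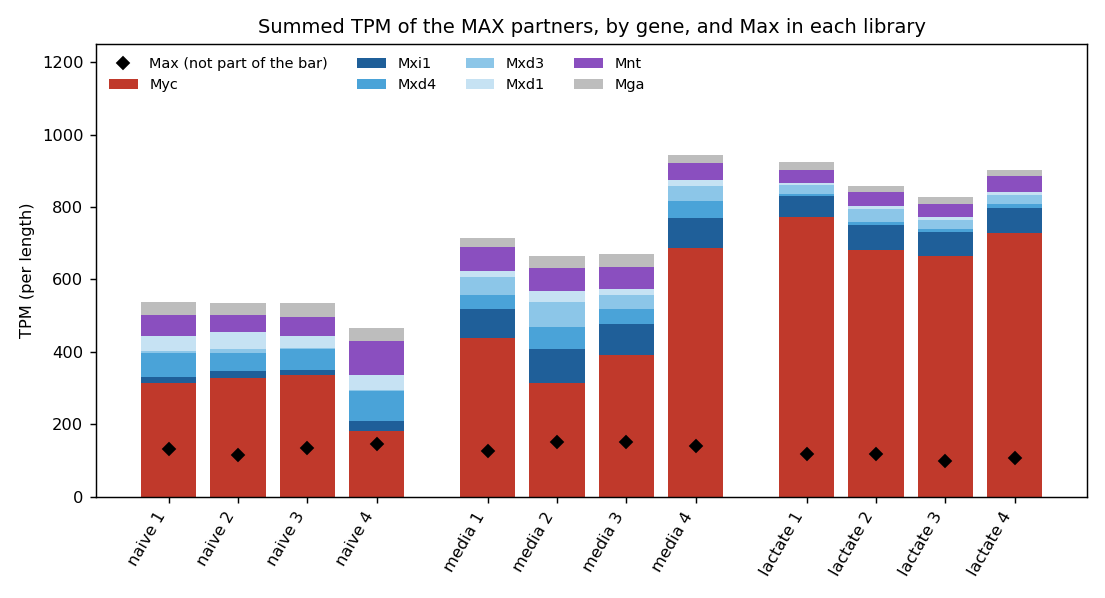
Stacked bars give the TPM (linear axis from 0) of the 7 MAX partner genes in each of the 12 libraries, and black diamonds give the TPM of Max, which is not part of the bar. The Myc segment makes up 79.5 to 83.6% of the bar in the lactate libraries and 39.1 to 72.6% in the others, while Max stays between 99.6 and 151 TPM.

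Genes that MYC is known to induce were followed through a list of 54, mostly for ribosome synthesis, nucleotide and polyamine metabolism and mitochondrial function, written from general knowledge. With lactate against media 44 of the 54 rose, none fell and 10 did not pass (edgeR adjusted p of at most 0.01), where 13.9% of all genes were higher. All 54 had a log2 fold change above 0, from 0.03 to 2.19, with a median of 1.15 against -0.00158 over all genes. Cad, which starts pyrimidine synthesis, rose 2.08-fold (log2 fold change 1.06, edgeR adjusted p = 0.00321), a call that was lost without media replicate 4 (0.0118), without lactate replicate 1 (0.0113) and with the block by mouse in the 12-library fit (0.0204). Odc1, the first enzyme of polyamine synthesis and a classic MYC target, lay at 93.8 to 174 CPM in media and 269.8 to 383 CPM with lactate, without overlap, but at 1.16 its edgeR adjusted p was 0.0115. The nucleolar protein gene Ncl (0.48, edgeR adjusted p = 0.0102) and the kinase gene Cdk4 (0.36, edgeR adjusted p = 0.0137) were also just above the threshold. All 3 passed without naive replicate 4, with edgeR adjusted p-values of 0.000367 (Odc1), 0.000447 (Ncl) and 0.00324 (Cdk4). The largest rise of the list, chosen after its values were seen, was that of spermidine synthase Srm at 2.19.

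In media against naive cells 9 genes of the same list rose, 15 fell and 30 did not pass, with a median of -0.27, where 28.5% of all genes were higher and 29.0% lower. Ncl rose 2.02-fold (edgeR adjusted p = 1.84e-05) and Cdk4 2.75-fold (edgeR adjusted p = 1.16e-07), while Cad gave 0.46 (edgeR adjusted p = 0.0889) and Odc1 -0.26 (edgeR adjusted p = 0.473). In lactate against naive cells 39 rose and none fell, with a median of 0.89, where 33.0% of all genes were higher and 32.0% lower. Over the alternatives at the threshold of 0.01 the count called between lactate and media ran from 32, with the block by mouse in the 12-library fit, to 48, and it was 47 with that block and the 8 activated libraries alone. The list was chosen with earlier results of these data known, so its count is no independent evidence of a direction. Cdk4 shares 19.7% of its exon length with Tspan31 on the other strand.

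The list of 6 genes known to be repressed by MYC did not move as 1 group. Of its 5 genes in the table (all but Cdkn2b), Cdkn1b and Ndrg1 fell with lactate against media and none rose. In that comparison 11.1% of all genes were lower and 13.9% higher. Cdkn1b, the cell cycle inhibitor p27, went from 154 to 375 CPM in media to 71.5 to 119 CPM with lactate, without overlap (3.07-fold lower, edgeR adjusted p = 0.000282). Cdkn1a, the inhibitor p21, was at 66.8 to 123 CPM in media and 151 to 198 CPM with lactate, a log2 fold change of 0.81 that did not pass (edgeR adjusted p = 0.0451), but did with the block by mouse and the 8 activated libraries alone (0.00357) and without naive replicate 4 (0.00297). It rose 11.5-fold in media against naive cells (edgeR adjusted p = 1.49e-06). Gadd45a lay at 4.07 to 20.9 CPM in media and 1.33 to 15.9 CPM with lactate, and its value of 0.00821 changed sign with the scaling. It shares 19.1% of its exon length with a counted gene on the other strand. The median of the 5 genes was -0.30 for lactate against media and 3.41 for media against naive, where Cdkn1a, Ndrg1 and Ndrg2 rose and none fell. Of all genes 28.5% were higher and 29.0% lower in media against naive.

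**Figure D4:**
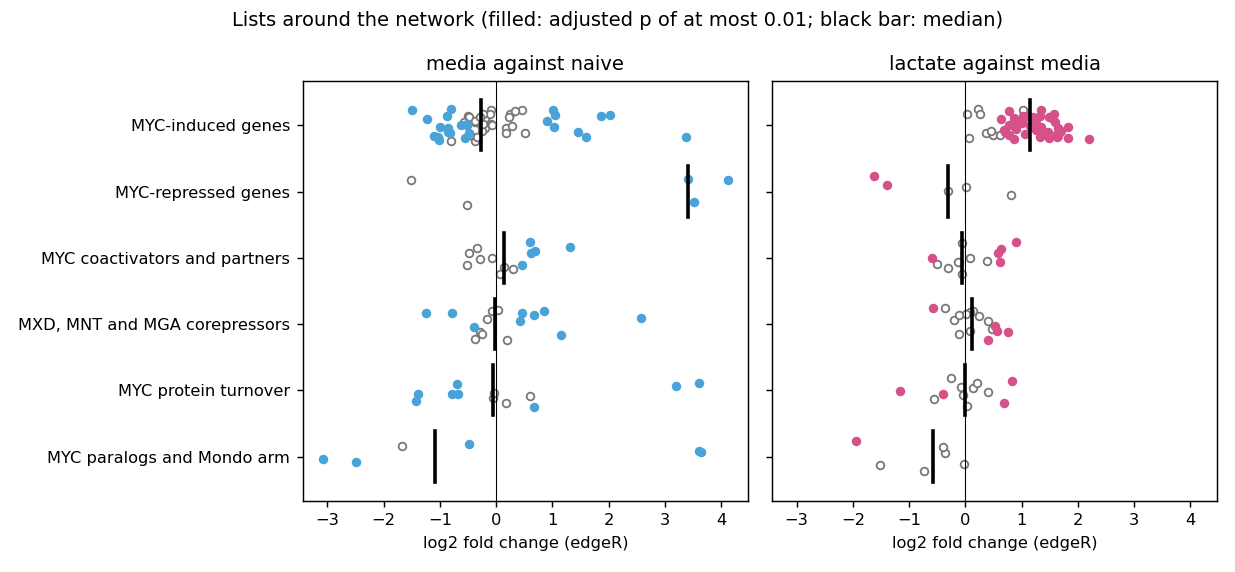
Log2 fold changes (x axis, edgeR) of the genes in 6 lists around the network for media against naive (left) and lactate against media (right). Each point is 1 gene, filled at an adjusted p of at most 0.01, with vertical position within a row only for spacing, and black bars are medians. The MYC-induced genes lie on both sides of 0 on the left (median -0.27) and all above 0 on the right (median 1.15).

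Of the MYC paralogs, Mycn rose from 0.0560 to 0.620 CPM in naive libraries to 2.79 to 10.6 CPM in media (12.2-fold, edgeR adjusted p = 0.000371). Mycl fell from 2.35 to 14.5 CPM to 0.764 to 1.39 CPM (8.47-fold, edgeR adjusted p = 0.000136). Neither passed between lactate and media, where Mycn gave -0.36 (edgeR adjusted p = 0.651) and Mycl -0.02 (edgeR adjusted p = 0.995). Both stayed far below Myc in CPM in every group.

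In the Mondo arm, which pairs with MLX, Arrdc4 was the only gene of the list of 6 (with the paralogs) called between lactate and media. None of the list rose, where 25.1% of all genes were called and 13.9% were higher. Arrdc4, an arrestin-family target of MondoA, was at 7.44 to 14.7 CPM in naive, 1.02 to 2.57 CPM in media and 0.212 to 0.771 CPM in lactate libraries. Its media values rested on 22 to 47 counts per library and its lactate values on 3 to 16. Arrdc4 fell 3.86-fold between these last 2 groups (edgeR adjusted p = 0.00323). That call was lost with the block by mouse in the 12-library fit (edgeR adjusted p = 0.0195). It was also lost without media replicate 2 (0.0125), lactate replicate 1 (0.012) or lactate replicate 3 (0.0107). Txnip, the other well-known target, whose product limits glucose uptake, was at 616 to 1583 CPM in naive, 186 to 583 CPM in media and 76.6 to 388 CPM in lactate libraries. It gave -0.74 for lactate against media (edgeR adjusted p = 0.261), -1.67 for media against naive (edgeR adjusted p = 0.0108) and fell 5.33-fold in lactate against naive cells (edgeR adjusted p = 0.00103). Media against naive passed under several alternatives, among them DESeq2 (adjusted p = 0.00166), edgeR's likelihood ratio test (0.00173) and limma voom (0.00778). Within the runs it was -2.29 (low run, 3 against 3) and -0.08 (high run, 1 against 1). Txnip shares 19.4% of its exon length with a counted gene on the other strand. Mlxip, the MondoA gene, gave -0.40 with lactate against media (edgeR adjusted p = 0.0221, and 0.0057 without lactate replicate 1). It fell 1.40-fold in media against naive cells (edgeR adjusted p = 0.00365, and 0.0139 without media replicate 3). Mlxipl, the ChREBP gene, was at 0 to 4 counts in the naive libraries, at 1.02 to 1.53 CPM (21 to 28 counts) in media and at 0.283 to 0.629 CPM (4 to 12 counts) with lactate. It rose in media against naive cells (edgeR adjusted p = 5.11e-05). For lactate against media it gave -1.51 without overlap (edgeR adjusted p = 0.0132), which passed with edgeR's likelihood ratio test (0.000306), DESeq2 (0.0066), the 2 groups alone (0.00246) and without naive replicate 1 (0.0077) or 4 (0.00276). Over the 6 genes the median was -0.57 for lactate against media. The count called between these groups ran from 0 to 3: it was 3 with DESeq2 (Arrdc4, Mlxip and Mlxipl) and 0 with the block by mouse in 12 libraries and without media replicate 2 or lactate replicate 3. It was also 0 with at least 10 counts in every library, but that filter removed Arrdc4, Mlxipl and Mycn before testing.

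Among 13 coactivators and partners of MYC, 4 rose and 1 fell with lactate against media, where 25.1% of all genes were called, with a median of -0.05. The risers were Ruvbl1 and Ruvbl2, helicase subunits of the TIP60 complex, its actin-related subunit Actl6a, and Wdr5, which helps MYC to chromatin, and the gene that fell was Brd8. Ruvbl1 went from 19.0 to 31.5 CPM in media to 41.2 to 54.1 CPM with lactate (1.85-fold, edgeR adjusted p = 0.000592) and Wdr5 from 66.7 to 86.0 CPM to 104 to 126 CPM (1.5-fold, edgeR adjusted p = 0.00124), and the latter was not called with the block by mouse in the 12-library fit (0.029). Trrap, the scaffold of these acetyltransferase complexes, gave -0.50 (edgeR adjusted p = 0.0123, and 0.00124 with DESeq2), and Zbtb17, the MIZ1 gene, gave 0.09 (edgeR adjusted p = 0.679). In media against naive 5 rose and none fell, where 57.5% of all genes were called. Ruvbl1 was among the 5 (1.63-fold, edgeR adjusted p = 0.000993), and 3 genes of the list were called without naive replicate 1, naive replicate 3 or lactate replicate 4.

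Among 16 corepressors used by MXD, MNT or MGA, 4 rose with lactate against media (Hdac2, Rbbp4, Rbbp7 and L3mbtl2), Ncor1 fell and 11 did not pass, where 25.1% of all genes were called, with a median of 0.11. Hdac2, a histone deacetylase, went from 85.3 to 108 CPM to 131 to 138 CPM (1.44-fold, edgeR adjusted p = 0.000976, and 0.019 with the block by mouse in the 12-library fit). The scaffold genes gave -0.37 for Sin3a (edgeR adjusted p = 0.0759) and 0.09 for Sin3b (edgeR adjusted p = 0.432), and Pcgf6 of the MGA complex gave 0.40 (edgeR adjusted p = 0.104, and 0.00815 without naive replicate 4). In media against naive 6 rose and 3 fell, where 57.5% of all genes were called. Sin3b was among those that fell (1.31-fold, edgeR adjusted p = 0.000937). The genes named in these lists by symbol beyond the preset ones (Ruvbl2, Actl6a, Brd8, Rbbp4, Rbbp7, L3mbtl2, Ncor1, Ndrg1 and Ndrg2) were named after their values were seen.

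Among 12 genes for the turnover of MYC protein, 2 rose and 2 fell with lactate against media, where 25.1% of all genes were called, with a median of -0.00246. The count called was 2 without media replicate 2 and 1 with the block by mouse in the 12-library fit. Usp28, a deubiquitinase known to stabilise MYC, was at 148 to 190.2 CPM in naive, 48.6 to 85.9 CPM in media and 26.1 to 31.1 CPM in lactate libraries, without overlap. It fell 2.69-fold at activation (edgeR adjusted p = 7.07e-06) and another 2.23-fold with lactate (edgeR adjusted p = 0.000256). Fbxw7, which targets MYC for degradation, fell 1.60-fold in media against naive cells (edgeR adjusted p = 3.46e-05) and gave 0.04 for lactate against media (edgeR adjusted p = 0.8). Skp2, another ubiquitin ligase gene, gave 0.39 (edgeR adjusted p = 0.262), and Cip2a, which protects MYC from dephosphorylation, rose 9.20-fold at activation (edgeR adjusted p = 8.21e-08) and gave -0.07 with lactate (edgeR adjusted p = 0.802).

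The genes with the pattern most like each member were taken as those with the highest Pearson correlation of log2 CPM, among 9245 genes with a mean of at least 10 CPM. The libraries share their groups and runs, so that these values describe the libraries and carry no test. Over the 12 libraries Myc was most like Lif (r = 0.978), a cytokine gene, followed by Arpc4, Cdkn2aipnl, Ndufa10 and Abhd17a (r from 0.962 to 0.967). Over the 8 activated libraries it was most like Aopep (r = 0.987), Lif, Arpc1a, Cog7 and Irf4 (r from 0.976 to 0.984).

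Over the 12 libraries Mxd4 was most like Pik3ip1 (r = 0.990), Mxd3 like Cdkn2c (r = 0.994) and Mxi1 like Rtn3 (r = 0.993). Mlx was most like Vps53 (r = 0.980), Mxd1 like Letm2 (r = 0.978), Mga like Map3k2 (r = 0.977), Mnt like Tex261 (r = 0.931) and Max like Snrnp48 (r = 0.885). Among the members themselves, Mxd1 and Mxd4 had r = 0.941 over the 12 libraries and Mxi1 and Mxd3 had r = 0.893, as a description with no test.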

How the data were processed

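Libraries were made from total RNA with a stranded mRNA kit. By the methods and processing notes, the authors aligned reads to GRCm38 (mm10) with STAR 2.7.5b, dropped PCR duplicates and counted uniquely mapped reads over exons with featureCounts. The deposited file holds raw counts per gene, which were not normalized, and the length of each gene. Whether counting used strand is not given in the sources used here.

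Groups came from the sample labels. The filter on low counts required 1 CPM in at least 3 libraries. All 12 libraries, scaled by TMM, entered 1 unblocked quasi-likelihood fit of the 3 groups in edgeR 4.0.16 (R 4.3.3), two-sided, with Benjamini-Hochberg adjustment over 13767 genes and a threshold of 0.01. SE was derived from the log2 fold change and its F statistic. TPM used the lengths of the table, and log2 CPM a prior count of 2. By the study, the RNA samples within each condition came from separate mice. limma 3.58.1 and DESeq2 1.42.0 were alternatives, beside other scalings and filters, fits of only the 2 groups compared, a block by title number or by mouse, a term for the library run, an adjusted p of 0.05 and leaving out each library. The main fit was also run on simulated counts with the same spread for every gene and no shared mice or library runs. That run therefore does not cover the effect of shared mice or of the library runs.

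Mouse tags restart between the library runs and were read within each, giving 5 mice of activated cells, of which 3 gave both libraries. Deviations from the group means correlated at 0.374, 0.211 and 0.553 between libraries of 1 mouse, and at 0.374, 0.297, 0.0038 and 0.553 between those sharing a title number, and reached 0.371 between libraries of different mice in the high run. The mouse was taken as the pairing because the labels give it, not from these values. Named are all 9 members and, from each list, genes set by symbol, with those named after their values were seen said to be so. The members and lists were chosen with earlier results of these data known. Gene positions and overlaps came from GENCODE M21. One gene of the lists is counted but not reported by name here.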

Additional observations from a re-analysis of the deposited data

Results flagged for a closer look

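In 30 groups of 4 libraries checked (the CPM of each member and the share of Myc among the MAX partners), 2 held a library far from the other 3 by Dixon's criterion, and chance marks about 1 in 20 such groups. For Max, media replicate 1 lay at 127.9 CPM and the other media libraries at 153.8 to 154.2 CPM. For Mxd1, media replicate 2 lay at 61.22 CPM and the other media libraries at 33.38 to 37.57 CPM, still below the lowest naive library.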

How the results depend on the processing

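Between lactate and media, 5 members were called with the 2 groups fitted alone, and 2 to 6 when each library was left out (6 without naive replicate 4). With the replicate block by mouse in the 12-library fit, in which naive libraries form 1 level, 992 genes were called in place of 3451; with the block and the 8 activated libraries alone, an alternative chosen after seeing the data, 3654 genes and 3 members (Myc higher, Mxd1 and Mxd4 lower) were called. An adjusted p of 0.05 gave 5461 genes, and leaving out each library gave 2252 (without media replicate 2) to 4845 (without naive replicate 4). For media against naive, 5 members had an adjusted p of at most 0.05. As shares of summed CPM rather than TPM, Myc made up 30.2% (naive), 38.2% (media) and 63.9% (lactate) of the partners, since division by length is left out. Of the lists, the coactivators and the corepressors each had 2 genes called between lactate and media with the block by mouse in 12 libraries, in place of 5 each, and the turnover genes 1 in place of 4. The median of all genes moved by less than 0.1 under the other scalings.

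Signs that turned belonged to genes that did not pass, and the cause was not tested. For Gadd45a (lactate against media) the log2 fold change was -0.0348 with DESeq2, -0.032 with its size factors in edgeR, -0.0264 with upper quartile scaling, -0.0497 with total counts, -0.30 with voom, -0.00259 with at least 10 counts in every library, -0.0933 with the replicate block by title number, -0.57 with a term for the run, -0.96 and -0.88 with the block by mouse in 12 and 8 libraries, and -0.47 to 0.88 with a library left out. For Zbtb17 (lactate against naive) it was -0.0772 with DESeq2, -0.0771 with its size factors, -0.0281 with upper quartile scaling, -0.0269 with the count filter, -0.0324 with the run term, -0.0147 with total counts, -0.0381 with 2 groups alone and -0.13 to 0.21 with a library left out. For Mlx (media against naive) it was -0.0335 with DESeq2, -0.0332 with its size factors, -0.0035 with upper quartile scaling, -0.0131 with the count filter and -0.10 to 0.0819 with a library left out. For lactate against media, Fbxw7 gave -0.0055 with total counts, Mycl 0.21 with the run term, and Cip2a 0.0017 and 0.0076 with the block by mouse in 12 and 8 libraries. With a library left out, Fbxw7 ran from -0.000816 to 0.067, Mycl from -0.24 to 0.15 and Mycn from -0.95 to 0.18. For media against naive the ranges were -0.0326 to 0.15 (Max), -0.30 to 0.11 (Mnt), -0.20 to 0.13 (Zbtb17), -0.23 to 0.084 (Sin3a) and -0.50 to 0.21 (Odc1), and for lactate against naive -0.0458 to 0.39 (Pcgf6).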
